A study of Mus musculus with 6 samples.

Results

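The HOX cluster genes of the mouse were examined for RUNX1 peaks in granulosa cells, the hormone-producing somatic cells of the ovarian follicle. Members were the protein-coding RefSeq genes on GRCm38 whose symbol is Hoxa, Hoxb, Hoxc or Hoxd followed by a number, which gave 39 genes of 21900. They lie in 4 clusters, with 11 genes in HOXA, 10 in HOXB, 9 in HOXC and 9 in HOXD. A peak belonged to a HOX window when its summit lay between the first and the last gene of a cluster or within 50 kb of it. Of the 51515 peaks in the 4 deposited lists, 42 met this rule.

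The assay was ChIP-seq, in which DNA bound by RUNX1 is pulled down with an antibody and sequenced, in CBA x C57BL/6 F1 mice aged 21 days. Per the labels all groups were primed with 5 IU of eCG (equine chorionic gonadotropin), a hormone that makes follicles grow. The 2 libraries of the 0 h group come from pre-ovulatory granulosa cells before human chorionic gonadotropin (hCG), per the titles and the time-point label; the treatment text is the same for every sample and names only collection after hCG. The 2 libraries of the 6 h group come from peri-ovulatory granulosa cells 6 h after 5 IU of hCG, which was given 46 h after eCG and mimics the surge of luteinising hormone that triggers ovulation. Each time point had 1 pooled input. The labels do not say how many animals entered a library or whether replicates came from separate animals, so p-values measure only the spread between these samples, which may be technical. Peak lists hold no expression values, so the labelled cell type was not checked against marker genes.

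Hox genes encode transcription factors with a homeodomain, and their order along a chromosome follows the order in which they are used along the body axis. Paralogs with low numbers (anterior genes) act towards the head and those with high numbers (posterior genes) towards the tail. In the female reproductive tract posterior Hoxa genes are known for patterning the oviduct, uterus and vagina. HOX proteins often bind DNA together with partners of the TALE class, such as PBX and MEIS proteins. RUNX1 binds DNA through its Runt domain, with CBFB as its partner, and its best-known recognition sequence is TGTGGT.

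No RUNX1 peak lay in a HOX window before hCG, and all 4 windows held peaks 6 h after it. The counts were 0 in 0 h replicate 1, 0 in 0 h replicate 2, 17 in 6 h replicate 1 and 25 in 6 h replicate 2. The groups did not overlap. On the scale log2(peaks + 1) the means were 0 at 0 h and 4.44 at 6 h, a difference of 4.44 with p = 0.333 by a two-sided exact permutation test over the libraries (n = 2 and 2). A design of this size can give no smaller p. The lists also differ in length, with 948 and 3135 peaks at 0 h and 18761 and 28671 peaks at 6 h. HOX window peaks made up 0.0906% of the list of 6 h replicate 1 (exact Clopper-Pearson 95% interval 0.0528 to 0.145) and 0.0872% of that of replicate 2 (0.0564 to 0.129). At 0 h the share was 0, with upper limits of 0.388% and 0.118% in replicates 1 and 2, so both 6 h shares lay inside the 0 h intervals. These intervals cover counting error only. At the 6 h shares a list as long as that of 0 h replicate 1 would hold 0.827 to 0.859 HOX peaks, and one as long as that of replicate 2 would hold 2.73 to 2.84. The intervals were read one library at a time, and 2 libraries per group cannot settle whether the share differed between the time points. When each list was cut to its 948 strongest peaks by p-value, all 4 held 0 HOX window peaks.

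The nearest 0 h peaks lay outside the HOX windows. Both 0 h lists are sparse, with 0.0350 and 0.116 peaks per 100 kb in replicates 1 and 2 over the span of the gene table. Long distances to a peak are thus common in them, and those below do not set the HOX clusters apart. In 0 h replicate 1 the distance from the edge of the cluster to the nearest summit was 505 kb at HOXA, 935 kb at HOXB, 1536 kb at HOXC and 894 kb at HOXD. In 0 h replicate 2 it was 453 kb at HOXA, 370 kb at HOXB, 174 kb at HOXC and 767 kb at HOXD. The closest of these, beside HOXC, had the non-coding gene Cistr at its nearest gene end. No Hox gene had a 0 h peak within 50 kb in either library, and flanks of 100 kb also gave 0 peaks.

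**Figure D1:**
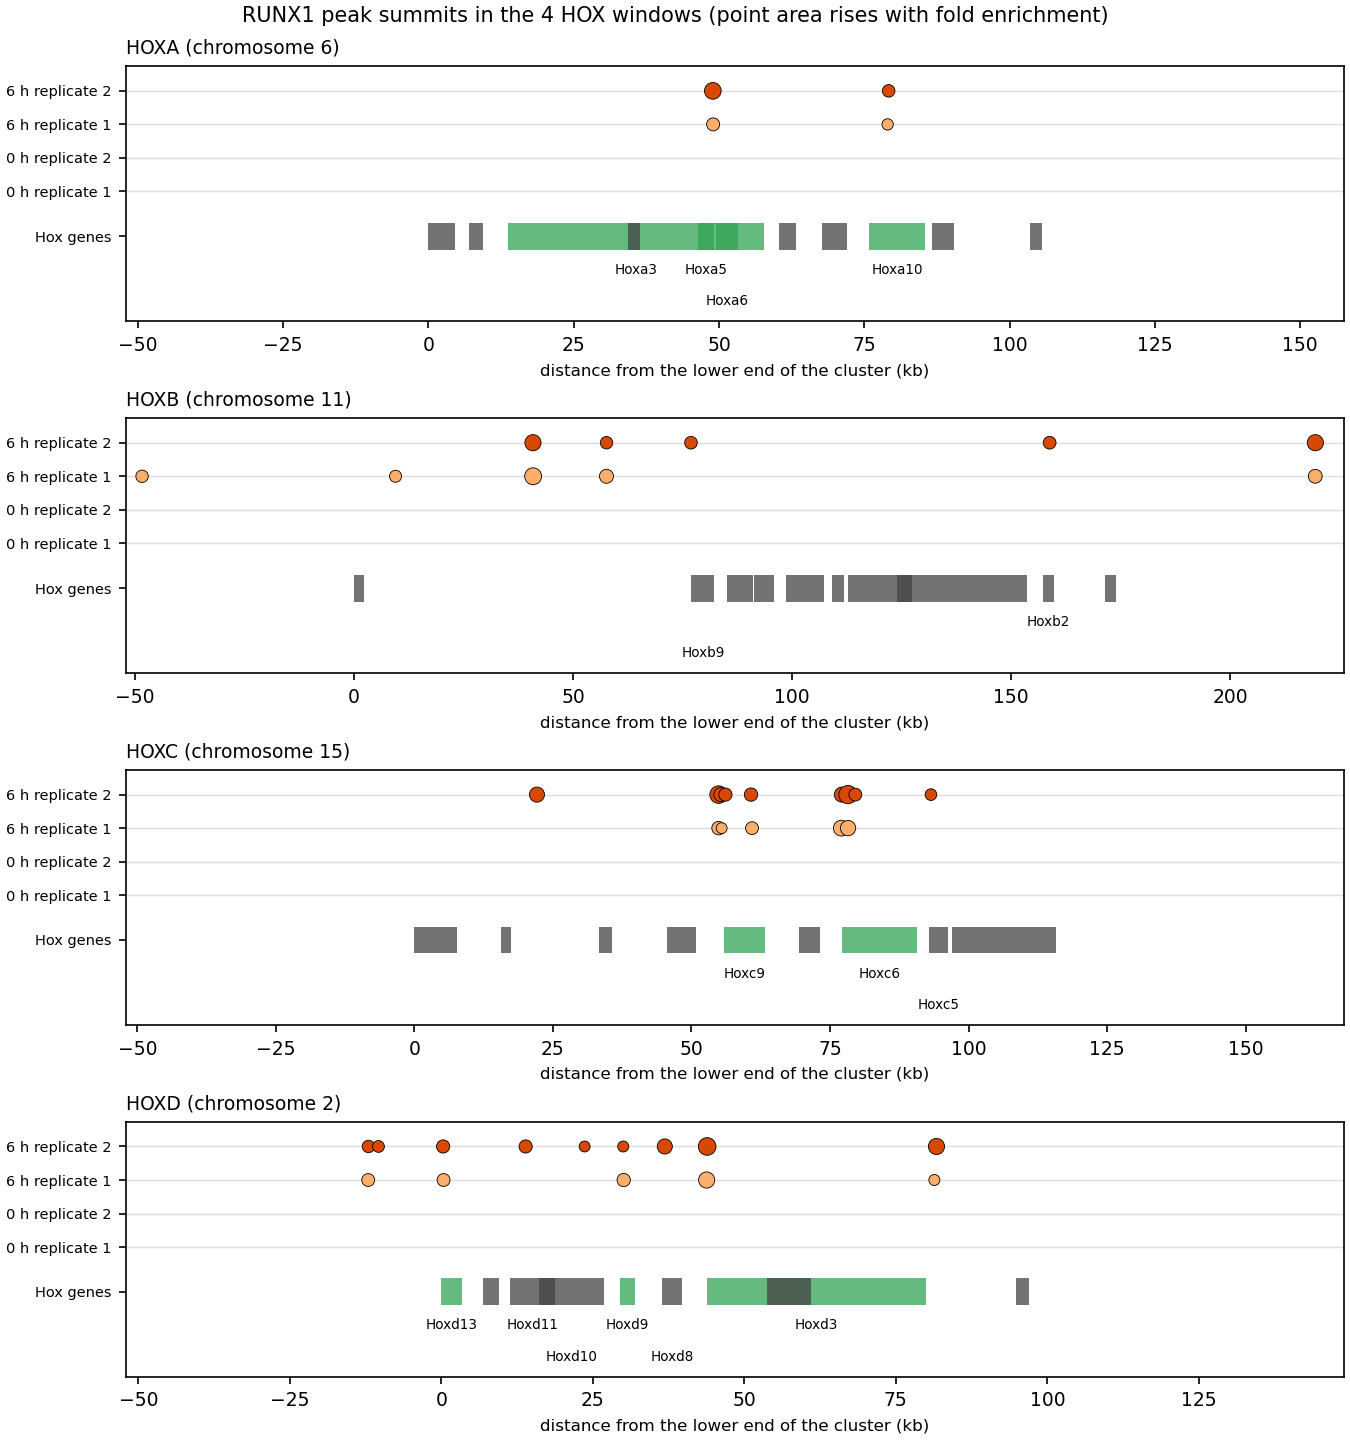
Summits of RUNX1 peaks in the 4 HOX windows. The x axis gives the distance in kb from the lower end of each cluster, each row is a library, point area rises with fold enrichment, and boxes are Hox genes (green with a replicated 6 h region inside or within 1 kb, grey without, darker where gene models overlap), named where a 6 h peak lies inside or within 1 kb. Both 0 h rows are empty in all 4 panels, while the 6 h rows hold 17 and 25 points.

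The depth behind these calls was recovered from the peak values. The genome-wide background was 2.77 and 2.65 reads in 0 h replicates 1 and 2 and 2.76 and 2.13 reads in 6 h replicates 1 and 2. At that background a summit needed 18, 17, 18 and 16 reads, in the same order, to pass the lowest −log10 p of its list. The 42 HOX window peaks all come from the 6 h lists and had 19 to 93 reads at the summit, which says nothing of the 0 h libraries, since these peaks had to pass the 6 h limits to be listed. The local background at the HOX windows at 0 h is not known, because a list gives it only under a peak.

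Peaks were counted as replicated when the intervals called in replicates 1 and 2 of a time point shared at least 1 bp. Of the 17190 replicated regions at 6 h, 15 had their summit in a HOX window, and 13 of these lay inside a cluster rather than in its flanks. Of the 847 replicated regions at 0 h, 0 did. None of the 15 regions overlapped a peak of either 0 h library, against 16.5% of all replicated 6 h regions that did. With no 0 h peak in any HOX window this count could only be 0, so it is not a further result. The nearest 0 h summit was 229 to 848 kb away. The replicates placed the summits within 100 bp of each other in 11 of the 15 regions. The same share over all replicated 6 h regions was not computed. A stricter limit, −log10 q of 20 or more, left 9 and 13 HOX window peaks in 6 h replicates 1 and 2, in place of 17 and 25, and 6 of the 15 replicated regions, while the number of all replicated 6 h regions came to 11952, or 69.5% of 17190.

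The HOX regions had a lower median rank than all replicated 6 h regions. The median of the mean percentile of fold enrichment over both lists was 35.6 for the 15 HOX regions and 59.1 for all 17190 regions. None of the 15 had a mean percentile above 90, where 12.02% of all regions lay. Single peaks ranged from percentile 5.48 to 83.3 in replicate 1, with a median of 40.3, and from 2.201 to 79.4 in replicate 2, with a median of 26.3. The fold enrichment, the authors' ratio of ChIP reads to local background at the summit, was 4.81 to 14.5 in replicate 1 and 4.87 to 17.4 in replicate 2. The median pileup was 33 and 34 reads in replicates 1 and 2, against 46 and 45 over the whole lists. The median local background was also lower, at 3.38 and 2.48 reads against 4.34 and 3.10 over the whole lists. HOX window peaks had a median width of 376 and 338 bp, against 415 and 412 bp over the lists.

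**Figure D2:**
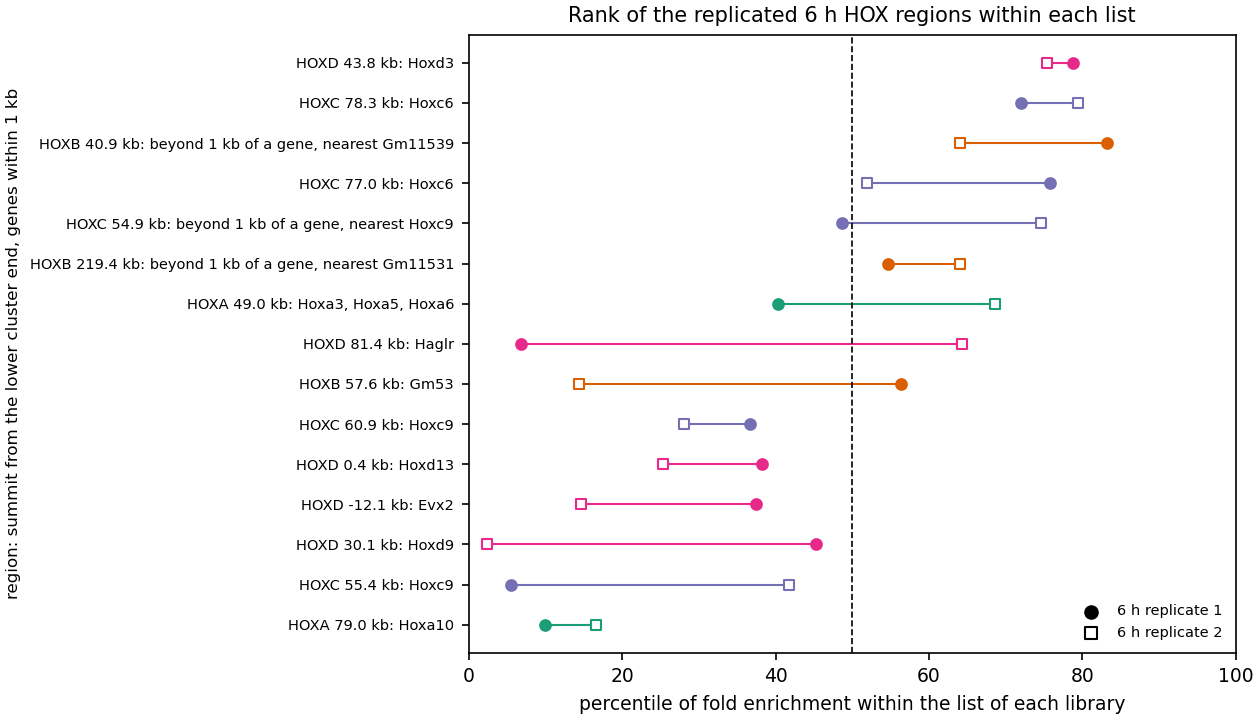
Percentile of fold enrichment of each replicated 6 h HOX region within the list of replicate 1 (filled circle) and replicate 2 (open square). Labels give the distance of the region from the lower end of its cluster and the protein-coding genes within 1 kb. Where there are none, they give the non-coding genes within 1 kb, or else the nearest gene. The dashed line is the middle of a list. No point lies above percentile 83.3, and the region inside Haglr differs most between the replicates.

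The clusters differed in how many peaks they held. HOXD and HOXC had 5 peaks each in 6 h replicate 1 and 9 each in replicate 2. HOXB had 5 in both libraries, and HOXA had 2 in both. Per 100 kb of window this is 2.54 and 4.57 peaks at HOXD, 2.32 and 4.17 at HOXC, 1.83 and 1.83 at HOXB and 0.973 and 0.973 at HOXA. The higher total of replicate 2 thus came from HOXC and HOXD. In both libraries HOXA had the fewest peaks although it has the most genes. The 4 clusters are single loci and not replicates, so these values are a description and no test was made.

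**Figure D3:**
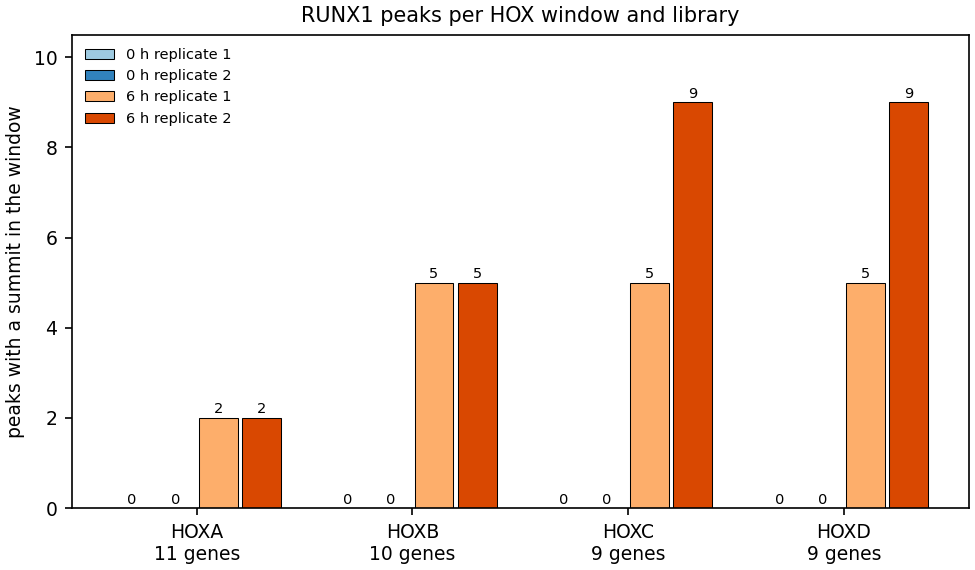
Number of RUNX1 peaks with a summit in each HOX window (bars, 1 per library). The 0 h bars are 0 at every cluster, and the 6 h bars run from 2 at HOXA to 9 in replicate 2 at HOXC and HOXD.

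HOXD lies on chromosome 2 at 74668225 to 74765142. Its highest-ranking region was at the start of Hoxd3, an anterior gene, at 74711700 to 74712392. The region had a fold of 13.03 with 48 reads in 6 h replicate 1 and of 16.0 with 49 reads in replicate 2, at percentiles 78.8 and 75.4. The summits were 9 and 92 bp downstream of the Hoxd3 start, and the intervals of the non-coding genes Gm38462 and Hoxd3os1 overlap the region.

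Of the 22 Hox genes with an entry, Hoxd3 was the only one whose promoter in the RefSeq table (GRCm38.p6, 250 bases before the start to 50 after it) held the summit of a replicated region, taken from replicate 1, and also the letters TGTGGT or TGCGGT on either strand. Its promoter is shown for that reason, with those of Hoxd9 and Hoxa5, which a replicated region overlapped (at Hoxa5 only the peak of replicate 2 reached the window), and of Hoxd10, which held TGTGGT and the summit of a peak of 6 h replicate 2 alone. The latter 3 were chosen after their values were seen. Sequences run 5′ to 3′ on the strand of the gene, and capitals mark the matches.
Hoxd3, chr2:74711743-74712042, + strand: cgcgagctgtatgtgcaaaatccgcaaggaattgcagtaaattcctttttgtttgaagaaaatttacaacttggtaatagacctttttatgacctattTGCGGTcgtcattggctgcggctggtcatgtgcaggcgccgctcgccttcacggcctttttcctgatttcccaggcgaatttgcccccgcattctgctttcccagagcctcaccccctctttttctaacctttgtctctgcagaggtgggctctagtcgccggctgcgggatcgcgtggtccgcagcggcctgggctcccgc
Hoxd10, chr2:74691641-74691940, + strand: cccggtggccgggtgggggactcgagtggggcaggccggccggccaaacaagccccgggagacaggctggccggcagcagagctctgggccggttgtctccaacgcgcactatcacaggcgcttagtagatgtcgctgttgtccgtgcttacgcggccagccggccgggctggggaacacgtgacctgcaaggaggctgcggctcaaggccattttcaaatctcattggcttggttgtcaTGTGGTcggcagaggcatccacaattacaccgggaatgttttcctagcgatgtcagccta
Hoxd9, chr2:74697513-74697812, + strand: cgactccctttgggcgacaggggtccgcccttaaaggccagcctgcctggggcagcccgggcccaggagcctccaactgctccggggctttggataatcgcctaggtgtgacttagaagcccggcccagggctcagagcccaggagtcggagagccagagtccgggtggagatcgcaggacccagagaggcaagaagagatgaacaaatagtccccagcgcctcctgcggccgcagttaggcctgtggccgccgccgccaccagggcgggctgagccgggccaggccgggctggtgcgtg
Hoxa5, chr6:52204538-52204837, − strand: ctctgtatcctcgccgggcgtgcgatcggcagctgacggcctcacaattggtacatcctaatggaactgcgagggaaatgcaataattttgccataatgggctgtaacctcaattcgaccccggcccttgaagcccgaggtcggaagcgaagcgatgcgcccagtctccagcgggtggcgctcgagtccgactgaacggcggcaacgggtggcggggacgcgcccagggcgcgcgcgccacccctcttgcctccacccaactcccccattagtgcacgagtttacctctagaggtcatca
The replicate 2 summit at Hoxd3 lay past the end of the window. In the Hoxd3 promoter the match TGCGGT began 161 bp from the nearest summit. In the Hoxd10 promoter TGTGGT began 20 bp from the summit of the replicate 2 peak. The Hoxd9 and Hoxa5 windows held neither sequence, nor did a Hoxd11 promoter in which another peak of replicate 2 alone had its summit.

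Over the 24 promoters in the table that belong to Hox genes (22 of the 39 genes had an entry), 1 held TGTGGT or its reverse complement ACCACA, or 4.17%, against 16.8% of all 32851 promoters. TGCGGT or ACCGCA was in 2 of the 24, or 8.33%, against 6.45% of all promoters, and the additional one was that of Hoxd1, 12973 bp from the nearest summit. Either sequence was in 3 of 24, or 12.5%, against 22.4%. The Hox promoters were richer in CpG, with a median of 14.5 CpG dinucleotides in 300 bases against 7 in all promoters. A match is a description of the letters and not a binding site.

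The next region of HOXD by rank was inside Haglr, a long non-coding gene whose interval lies between those of Hoxd3 and Hoxd1, at 74749262 to 74750125. Its fold was 4.98 with 32 reads in replicate 1 and 13.1 with 43 reads in replicate 2, at percentiles 6.85 and 64.3, and its summits lay 351 bp apart. The replicates thus disagreed in rank and in summit here.

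Hoxd13, the most posterior gene of the cluster, had a region at 74668386 to 74668725 with a fold of 7.59 and 8.04 and 31 and 27 reads in replicates 1 and 2, at percentiles 38.3 and 25.4. Hoxd9 had a wide region of 1196 bp at 74697644 to 74698839, with a fold of 8.17 and 4.99 and 40 and 35 reads. Its local background was 4.02 and 6.21 reads, and the percentiles were 45.2 and 2.35. Evx2, an even-skipped homeobox gene that flanks the cluster beyond Hoxd13, had a region inside it at 74655988 to 74656399, where the fold was 7.56 and 6.92 and the percentile 37.5 and 14.7. Peaks of replicate 2 alone lay inside Hoxd8, Hoxd10, Hoxd11 and Evx2, with folds of 11.2, 4.87, 7.98 and 6.03. Hoxd1, Hoxd4 and Hoxd12 had no 6 h peak within 1 kb.

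HOXC lies on chromosome 15 at 102921131 to 103036856. All 5 of its replicated regions lay at or beside Hoxc6, a central gene, or Hoxc9, a posterior gene. The highest was inside Hoxc6 at 102998646 to 102999865, with a fold of 11.5 and 66 reads in 6 h replicate 1 and of 17.4 and 81 reads in replicate 2, at percentiles 72.1 and 79.4. It was 1220 bp wide, and the summits of the replicates were 17 bp apart. A neighbouring region at 102998069 to 102998530 crossed the lower end of the Hoxc6 interval and the upper end of that of the non-coding gene Gm29905. Its fold was 12.3 and 10.9, with 51 and 34 reads and percentiles of 75.7 and 51.9.

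Below Hoxc9 a region at 102975838 to 102976247 had its summit 1012 bp outside the gene, just beyond the limit of 1 kb. It held the highest pileup at any HOX window in replicate 2, with 93 reads and a fold of 15.8, and had 62 reads and a fold of 8.48 in replicate 1. The local background there was 6.43 reads in replicate 1 and 4.97 in replicate 2, the highest and the second highest at a HOX peak of their lists. A weaker region at 102976331 to 102976724 lay 453 bp outside Hoxc9, where the fold was 4.81 and 9.65 and the percentile 5.48 and 41.7. The remaining region, inside Hoxc9 at 102981517 to 102982164, had a fold of 7.496 and 8.28 and 33 reads in each replicate. Replicate 2 alone had further peaks inside Hoxc9, with a fold of 8.04, and inside Hoxc6, with a fold of 7.48.

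In replicate 2 alone a peak lay beside Hotair, the long non-coding gene between Hoxc11 and Hoxc12, with 39 reads and a fold of 11.1. Another lay inside Hoxc5 with a fold of 5.85, 0.606 kb from the middle of the microRNA gene Mir615. Hoxc4, Hoxc8, Hoxc10, Hoxc11, Hoxc12 and Hoxc13 had no 6 h peak within 1 kb.

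HOXB lies on chromosome 11 at 96194316 to 96368254 and is the longest cluster, because Hoxb13 stands apart from Hoxb9. None of its 3 replicated regions was within 1 kb of a Hox gene, and none lay between Hoxb9 and Hoxb1, where 9 of its 10 genes are. The highest lay in the gap between Hoxb13 and Hoxb9 at 96235014 to 96235369, 13409 bp from the nearest gene end, with a fold of 14.5 and 60 reads in replicate 1 and of 13.1 and 40 reads in replicate 2. At percentile 83.3 it was the highest-ranking HOX peak of replicate 1. A region in the same gap, inside the non-coding gene Gm53 at 96251637 to 96252088, had a fold of 9.25 and 6.89 and 38 and 23 reads. The last, at 96413578 to 96413899 in the flank beyond Hoxb1, had a fold of 9.04 and 13.1 and 33 and 40 reads.

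At HOXB 4 positions were called in 1 library only. Replicate 2 had a peak of 24 reads 108 bp from Hoxb9 and a peak of 22 reads inside Hoxb2, and replicate 1 had a peak of 28 reads inside Ttll6 in the flank and one of 23 reads inside Gm11538. Their folds lay between 6.38 and 7.34.

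HOXA lies on chromosome 6 at 52155367 to 52260880 and had 2 regions, both called in both 6 h libraries. The first, at 52203794 to 52204601, covered the start of Hoxa5, a central gene, with summits 231 and 288 bp downstream of it. Its fold was 7.77 with 33 reads in replicate 1 and 14.1 with 48 reads in replicate 2, at percentiles 40.3 and 68.6. The interval of Hoxa6 has an end 502 bp from the summit of replicate 1, and the long interval of Hoxa3 spans it, so 3 genes count as having this region. The second lay inside Hoxa10, a posterior gene required in the uterus, at 52234249 to 52234708. Its fold was 5.38 and 7.11, with 26 and 22 reads and percentiles of 10.01 and 16.6, the lowest mean of the 15 regions.

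At the 5 replicated regions within 1 kb of a Hox start in the promoter table, the summits lay downstream of that start. For replicates 1 and 2 the distances were 9 and 92 bp at Hoxd3, 359 and 282 bp at Hoxd13, 543 and 469 bp at Hoxd9, 231 and 288 bp at Hoxa5, and 555 and 382 bp at the inner start of Hoxa10. The summits of replicate 2 alone in the promoters of Hoxd10 and Hoxd11 lay upstream of the start. The starts of Hoxc6 and Hoxc9 are not in the table.

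Counted by gene, 0 of 39 Hox genes had a replicated 0 h region inside them or within 1 kb of an end, against 2.84% of all protein-coding genes. At 6 h 9 of 39 had one, or 23.1%, against 45.6% of all protein-coding genes. They were Hoxa3, Hoxa5, Hoxa6 and Hoxa10, Hoxc6 and Hoxc9, and Hoxd3, Hoxd9 and Hoxd13, with none in HOXB. By position along the axis they were 2 of 8 anterior genes (paralogs 1 to 3), 3 of 15 central genes (4 to 8) and 4 of 16 posterior genes (9 to 13). These calls are not all separate, since the anterior Hoxa3 and the central Hoxa5 and Hoxa6 share 1 region, at the Hoxa5 start. With only peaks of −log10 q of at least 20, 2 of 39 Hox genes had a 6 h region, Hoxc6 and Hoxd3, or 5.13%, against 35.5% of all protein-coding genes, and at 0 h 0 of 39 had one, against 1.12%. Under the 1 kb rule with all peaks, the 30 others lay 3200 to 66336 bp from the nearest replicated 6 h summit, with a median of 19359 bp.

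In single libraries 9 of 39 Hox genes had a peak of 6 h replicate 1 within 1 kb, against 46.3% of protein-coding genes, and 15 of 39, or 38.5%, had one of replicate 2, against 55.0%. Without 6 h replicate 1 the count is thus 15 in place of 9. In the 0 h lists 0 of 39 had a peak, against 3.12% and 11.2% of protein-coding genes. The 24 Hox genes with a peak in neither 6 h list include 8 of the 10 genes of HOXB. The share of all protein-coding genes with a peak in neither list was not computed, so these 2 counts have no comparison.

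Hox genes are short, with a median length of 3737 bp against 17146 bp for all protein-coding genes, and a long gene has more room for a summit inside it. Counting only summits within 1 kb of a gene end, whatever the length of the gene, left 7 of 39 Hox genes, or 17.9%, against 37.2%. Giving each region to only 1 of the genes within 1 kb, that with the nearest end, left 7 of 39, against 41.1%. With limits of 0, 5 and 10 kb the Hox genes gave 20.5%, 33.3% and 43.6%, against 35.6%, 49.3% and 53.1%. The share of Hox genes was below that of all protein-coding genes under each of these 6 distance rules. At 0 h these rules gave 0 of 39 Hox genes each, against 1.49% of protein-coding genes by gene ends, 2.44% by nearest gene, and 2.08%, 3.37% and 4.10% with limits of 0, 5 and 10 kb. No test was made, since neighbouring Hox genes share regions and are not independent.

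**Figure D4:**
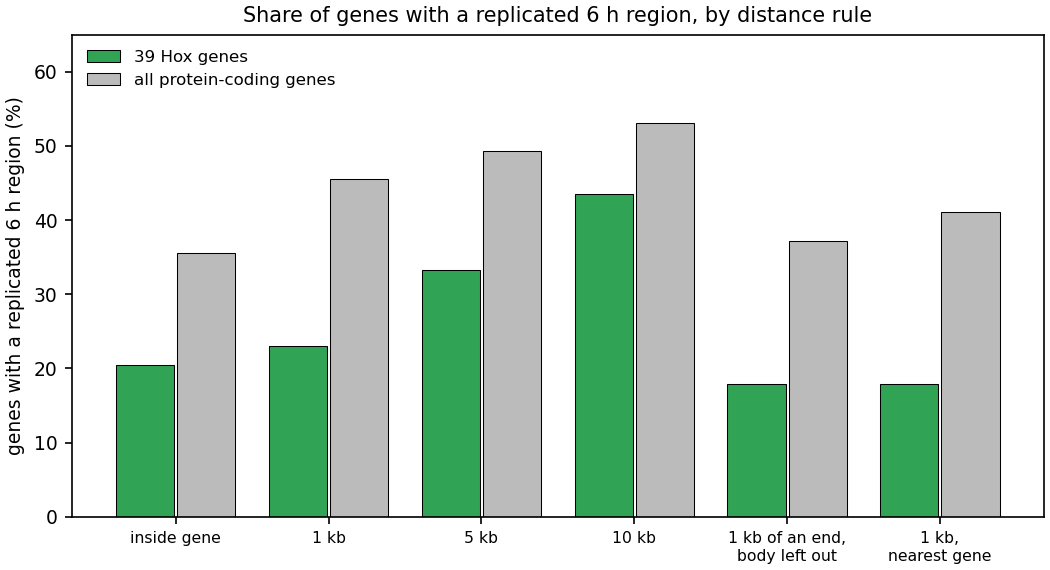
Percent of the 39 Hox genes (green bars) and of all 21900 protein-coding genes (grey bars) with a replicated 6 h region, under 6 rules for the distance between summit and gene. The green bar is the shorter of each pair, at 23.1% against 45.6% for the 1 kb rule.

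Counted by length of chromosome, the order was the opposite. The HOX windows held 1.91 peaks per 100 kb in 6 h replicate 1 and 2.80 in replicate 2, against 0.694 and 1.06 over the span of the gene table, or 2.75 and 2.64 times as many. The windows also held 4.60 protein-coding genes per 100 kb against 0.810, or 5.68 times as many. Peaks were thus denser than over the genome by a smaller factor than genes were.

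Genes of the TALE class were described by the same 1 kb rule. The 11 genes of the list encode PBX, MEIS and PKNOX proteins, which partner with HOX proteins or with each other, and the repressors Tgif1 and Tgif2, which are not counted among HOX partners. At 6 h 8 of 11 had a replicated region, or 72.7%, against the 45.6% of all protein-coding genes, and 7 of 11 by the rule of gene ends only, against 37.2%. Without the Tgif genes it was 6 of 9 by the 1 kb rule. Meis3, Pbx2 and Pbx4 had none. At 0 h 2 of 11 had one, against the 2.84% of all protein-coding genes. Pknox1, which encodes a partner of PBX proteins, had its highest region on chromosome 17 at 31563674 to 31565022, where the fold reached 29.5 in replicate 1 and 34.3 in replicate 2. For Tgif1 it lay on chromosome 17 at 70851559 to 70853519 (23.5 and 42.4). These regions had mean percentiles of 96.9 and 96.7 and both overlapped a 0 h peak. The highest regions of Pbx3 (mean percentile 94.99) and Meis1 (76.9) overlapped none. These genes have a median length of 42972 bp.

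Of 14 homeobox genes that flank or resemble the clusters (the Evx, Cdx, Gsx and Dlx genes and Pdx1), 5 had a replicated 6 h region, Dlx1, Dlx2, Dlx6, Evx2 and Gsx2, or 35.7%, against the 45.6% of all protein-coding genes. By gene ends only it was 3 of 14, against 37.2%. At 0 h 0 of 14 had one, against 2.84%. The highest of the 3 regions of Dlx2, on chromosome 2 at 71542359 to 71543620, reached 30.4-fold and 52.8-fold enrichment in replicates 1 and 2 and a mean percentile of 98.7. The highest regions of the others had mean percentiles of 79.6 at Dlx6, 58.6 at Gsx2, 37.0 at Dlx1 and 26.1 at Evx2. Among the 37 genes inside the windows that do not encode a protein, 7 had a replicated 6 h region, against 9.63% of all such genes in the table, and 0 had one at 0 h, against 0.591%. They were Gm38462, Hoxd3os1, Haglr, Hoxaas3, Gm53, Gm36878 and Gm29905. No microRNA gene of the clusters had a replicated region within 1 kb, and the nearest 6 h summits, measured to the middle of the gene, lay 2.63 kb from Mir196a-2, 4.26 kb from Mir196b, 6.01 kb from Mir196a-1, 14.0 kb from Mir10b and 35.9 kb from Mir10a.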

How the data were processed

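Per the submitters' processing notes, Bowtie2 2.2.5, MACS2 and the build mm10 (GRCm38) were used; settings are not given in the sources used here. The deposited lists, 1 per ChIP library, hold for each peak a fold enrichment (a ratio of ChIP to local background), p- and q-values as −log10, a score (deposited as 10 times −log10 p, not used) and the summit. Each was called against an input, per the peak names. Gene intervals and promoters are from RefSeq GRCm38.p6.

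Pileup and background were solved from fold (with a pseudocount of 1) and Poisson p-value, with a misfit of at most 0.005 in −log10 p, for 42 of 42 HOX window peaks. Tests were exact permutations over libraries. The peak and gene rules and the solver were tested on simulated data (Python 3.11.15, scipy 1.17.1). Members, lists and rules were chosen with earlier results of these data known. Named in full were the replicated regions, at most 5 per cluster by mean percentile, and Hox promoters with a summit and a motif. Alternatives changed the flank, peak limit, list length, overlap rule, gene distance and libraries. The 2 inputs entered only through the calls. Some genes are not reported here by name.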

Additional observations from a re-analysis of the deposited data

How the results depend on the processing

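The 0 h results (replicated regions, Hox genes, and 6 h regions that overlap a 0 h peak) were 0 under every alternative run, as they had to be, since no 0 h summit lay within 174 kb of a cluster and no alternative reached that far. With equal numbers of peaks per library the difference in peaks, the difference in share, the number of 6 h regions and the number of Hox genes at 6 h were all 0. A stricter limit on the peaks, −log10 q of 20 or more, left 6 regions and 2 Hox genes at 6 h, against 15 and 9 (35.5% of all protein-coding genes had a region at that limit), and a limit of 10 kb gave 17 genes. Leaving out a 6 h replicate leaves no replicated regions, so the peaks of the remaining library were counted in their place. This gave 17 or 25 peaks and 9 or 15 genes. With the replicate block the difference was again 4.44 on the log2 scale (exact sign-flip test, p = 0.5, the smallest that 2 pairs can give) and 0.0889 percentage points in share, and pairing could not be checked because both 0 h libraries hold 0 HOX peaks. The other 57 of 66 alternatives, those fixed at 0 included, kept their direction and stayed within 1.5 times the value reported, with peaks per library taken on the log2(peaks + 1) scale; as plain counts, the stricter limit moved 17 and 25 peaks to 9 and 13. Counting by gene end only and by nearest gene was chosen after seeing the data. The design has 2 libraries per group. At the 6 h shares the list of 0 h replicate 1 would hold under 1 HOX peak (0.827 to 0.859). That of 0 h replicate 2 would hold 2.73 to 2.84, and both lists held 0.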
